A study of Mus musculus with 3 samples.

Results

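The Hox cluster genes are the 39 mouse genes whose symbol is Hox, a letter from a to d and a number, and all 39 were listed in at least 1 of 3 single-cell count tables of the embryonic mouse kidney. The tables held 22939 genes for Drop-seq, 27933 for 10x and 23420 for C1, and 17864 genes stood in all 3, among them 36 Hox genes. Hoxd4, Hoxb13 and Hoxc12 had no row in the Drop-seq table. Each table came from 1 library of wild-type kidney at embryonic stage E14.5, from mice of mixed strain, mostly CD-1 and 129, with no treatment. Drop-seq and 10x Chromium capture cells in droplets and count molecules by a molecular identifier. Fluidigm C1 captures cells in a chip and its table counts reads. The 3 libraries are the only replication, each is a different platform, and the labels do not say how many embryos went into any of them or whether the cells came from different animals. The p-values below therefore measure how far the differences between classes vary from library to library, a spread that may be technical.

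Hox genes encode homeodomain transcription factors and lie in 4 clusters that arose by duplication. Genes with the same number in different clusters are paralogues. Within a cluster the low-numbered genes are expressed earliest and farthest forward along the body axis and the high-numbered genes later and farther back. HOX proteins bind DNA together with the TALE class homeodomain proteins of the PBX and MEIS families. The kidney forms from 2 tissues of the intermediate mesoderm: the ureteric bud, an outgrowth of the nephric duct that branches into the collecting system, and the metanephric mesenchyme, whose cap cells make the nephrons. Hoxb7 is a well known gene of the nephric duct and ureteric bud, and the HOX11 paralogues Hoxa11, Hoxc11 and Hoxd11 are required in the metanephric mesenchyme for the bud to form.

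On GRCm38, the build named mm10 in the submitters' processing notes, HoxA lies on the minus strand of chromosome 6 and holds 11 genes. HoxB spans chr11:96194316-96368256 with 10 genes, HoxC chr15:102921103-103036852 with 9 genes and HoxD chr2:74668310-74765142 with 9 genes, all on the plus strand. The homeobox, the 180 bases that code for the DNA-binding homeodomain, was found in all 39 genes in the GENCODE M21 transcripts. Hoxb7 is shown because it was higher in the ureteric than in the mesenchymal classes in every library, and Hoxa11 and Hoxd11 because they are paralogues from different clusters that were both lower there. The 18 bases in capitals code for the stretch tryptophan, phenylalanine, glutamine, asparagine, arginine, arginine of the helix that contacts DNA.
Hoxb7 (chr11:96286623-96290162, plus strand): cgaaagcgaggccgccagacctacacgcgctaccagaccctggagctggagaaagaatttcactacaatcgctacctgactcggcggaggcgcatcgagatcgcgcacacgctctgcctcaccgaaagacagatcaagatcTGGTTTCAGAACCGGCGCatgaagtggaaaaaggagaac
Hoxa11 (chr6:52242106-52245810, minus strand): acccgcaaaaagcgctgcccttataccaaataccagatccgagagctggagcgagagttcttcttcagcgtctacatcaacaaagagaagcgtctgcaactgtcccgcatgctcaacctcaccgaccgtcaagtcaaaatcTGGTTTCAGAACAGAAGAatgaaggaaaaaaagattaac
Hoxd11 (chr2:74679557-74687016, plus strand): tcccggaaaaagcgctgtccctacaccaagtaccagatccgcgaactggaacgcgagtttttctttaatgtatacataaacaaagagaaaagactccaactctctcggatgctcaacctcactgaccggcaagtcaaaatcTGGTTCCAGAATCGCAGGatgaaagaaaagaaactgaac
The homeoboxes of the paralogues Hoxa11 and Hoxd11 were identical at 145 of 180 bases (80.6%) and those of Hoxb7 and Hoxd11, which belong to different paralogue groups, at 102 (56.7%).

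After filters on cells, 1964 Drop-seq, 2130 10x and 884 C1 cells were kept, with a median of 7060 and 7369 molecules and 166639 reads per cell, and no barcode was shared between libraries. Cells were clustered in each library with all Hox genes left out, and clusters were named from marker lists. The ureteric-like class held 175, 153 and 92 cells in Drop-seq, 10x and C1, the order in which 3 values are given throughout. The cap mesenchyme-like class held 592, 203 and 192 cells, the stroma-like class 423, 857 and 297, the nephron epithelium-like class 482, 445 and 72, and the endothelium-like class 104, 390 and 77. An immune-like class of 67 cells was found in 10x and one of 14 cells in C1. The 13 ureteric markers, among them Ret, Wnt11 and Calb1, summed to 2389, 3381 and 2649 CPM (counts scaled to 1000000 per class and library) in the ureteric class and to between 13.1 and 63.0 CPM in the cap and stroma classes. Markers of other types were not equally low in the 3 ureteric classes: cap markers summed to 76.3, 49.5 and 519 CPM and the collagen-rich stromal list to 90.9, 111 and 666 CPM, so the C1 class carried the most of both. Other lists were higher than these in the droplet libraries. The early nephron list summed to 859, 503 and 783 CPM, the distal nephron list to 321, 293 and 406 CPM and the nephrogenic-zone stromal list to 331, 220 and 418 CPM. Hox levels below are CPM over the 17864 shared genes, with all counts of a class in a library summed. They are not scaled to gene length and compare classes for a gene, not genes with each other.

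**Figure D1:**
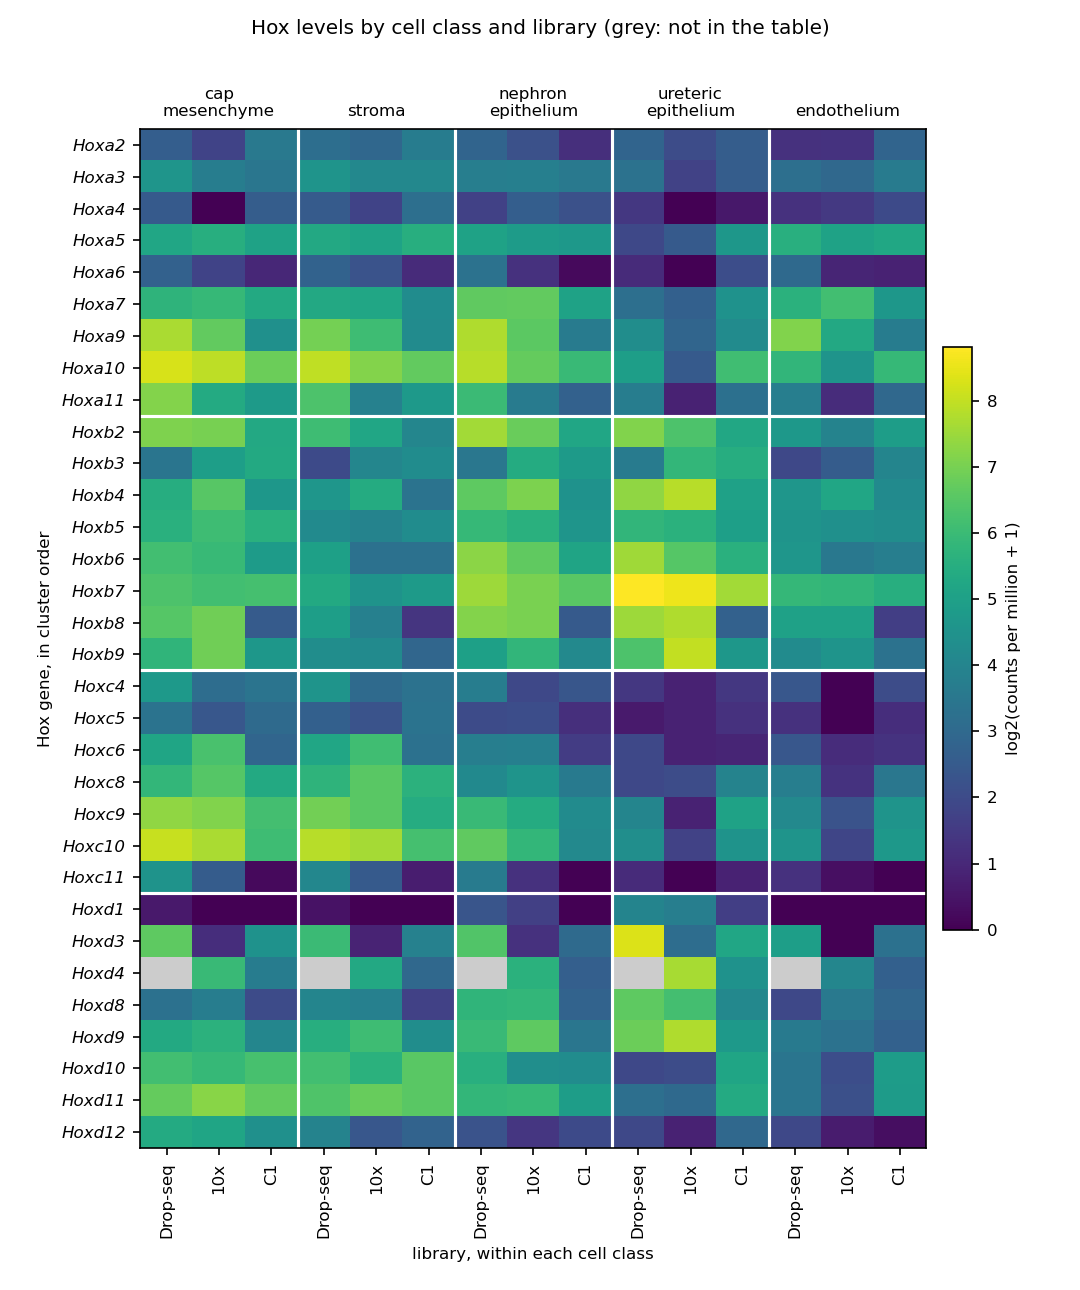
Level of the 31 tested Hox genes and Hoxd4 (rows, in cluster order) as log2 of CPM plus 1 on the colour scale, in the 5 classes, each with 1 column per library; grey marks a gene with no row in that table. Hoxb7 is brightest in the ureteric columns (447 CPM in Drop-seq), and the HoxC rows are brightest in the cap and stroma columns, as for Hoxc10 with 266 CPM in the Drop-seq cap class.

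In each library the summed level of the Hox genes in the ureteric class lay below that of the cap class and above that of the stroma, and it came from different clusters. Summed over the 36 shared genes, they reached 1959, 1908 and 823 CPM in the ureteric class, 2260.4, 2082 and 994 CPM in the cap class and 1578, 1238 and 781 CPM in the stroma. HoxB genes made up 64.5%, 71.1% and 49.9% of all Hox counts in the ureteric class, against 23.5%, 32.7% and 28.3% in the cap class and 14.6%, 13.7% and 13.7% in the stroma. HoxC genes made up 2.23%, 0.452% and 9.01% in the ureteric class, against 25.5%, 25.4% and 20.2% in the cap class. The groups did not overlap for either cluster.

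In the edgeR fit of the class sums, ureteric epithelium was set against the mean of cap mesenchyme and stroma, with the library as a block. Of the 31 Hox genes that passed the filter on low counts, 20 passed an adjusted p of 0.05, against 12.2% of the 10148 genes tested. The 20 were 10 higher genes, against 7.46% of all genes, and 10 lower genes, against 4.78%. The median log2 difference of the 31 was -1.23 and that of all genes tested -0.02. All 20 had the same direction in each library, the 10 higher genes lay above both mesenchymal classes in every library, and 9 of the 10 lower genes lay below both. The exception was Hoxd12 in C1, at 6.79 CPM in the ureteric class and 6.06 CPM in the stroma. For this and the comparisons below, the share of all genes that lay on the same side in every library was not determined. The calls leaned on single libraries: 6 genes passed when Drop-seq was left out, 11 when 10x was and 28 when C1 was.

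**Figure D2:**
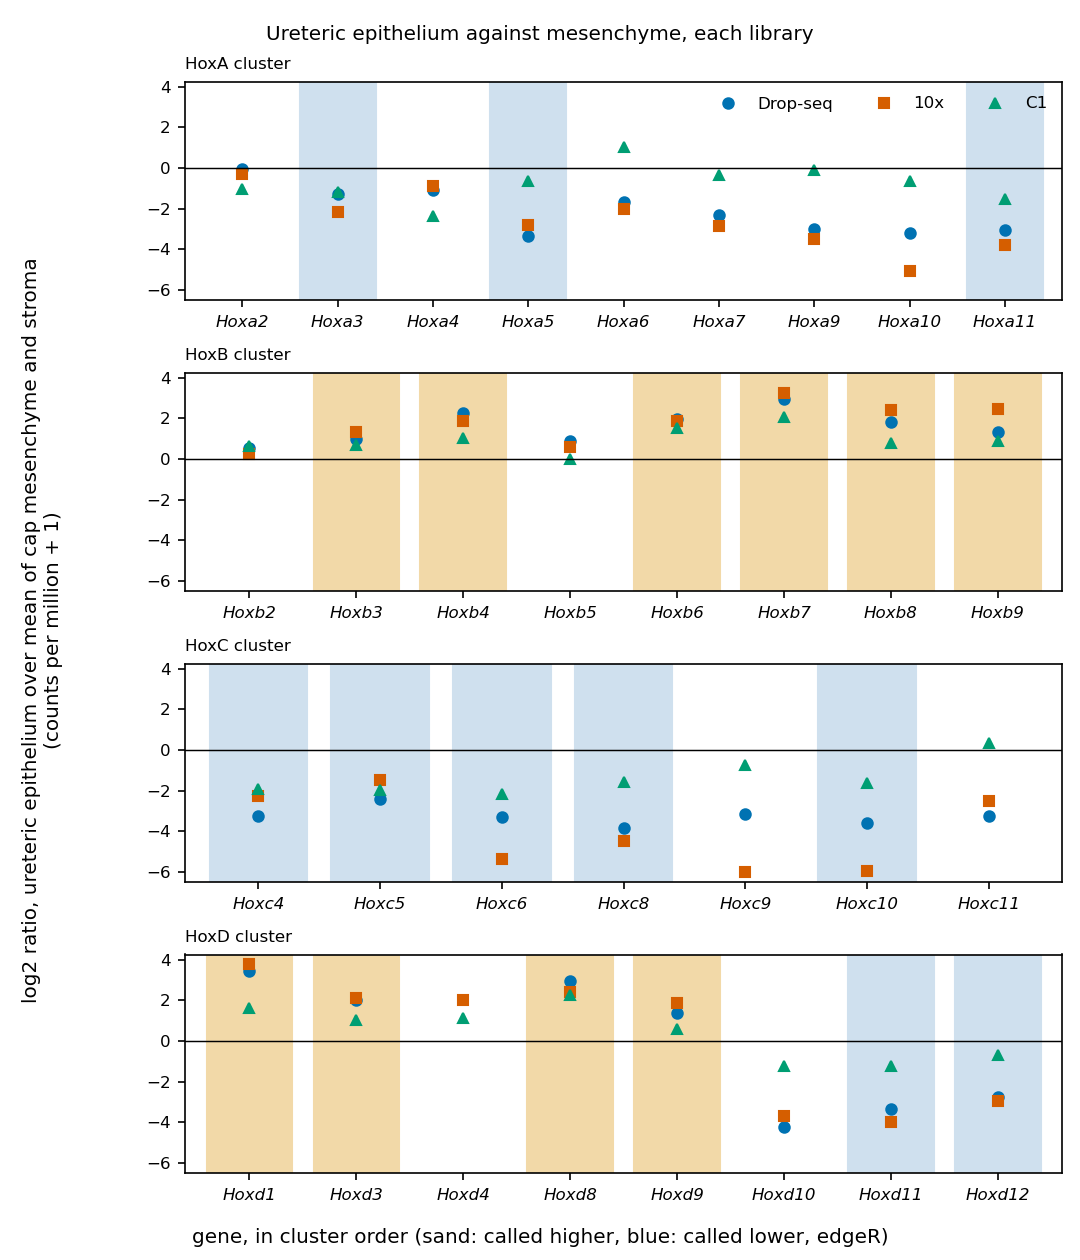
Log2 ratio of each gene's level in the ureteric class to the mean log level of the cap and stroma classes (CPM plus 1, vertical axis), with 1 marker per library, for the 31 tested genes and Hoxd4 (horizontal axis, 1 panel per cluster). Sand bands mark genes called higher and blue bands genes called lower in edgeR: HoxB markers lie at or above 0, HoxC markers lie below it apart from Hoxc11 in C1, and HoxD changes side between Hoxd9 and Hoxd10.

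HoxB genes were the higher ones. Of the 8 HoxB genes tested, 6 were higher in the ureteric class, the other two had positive differences that did not pass, and the median log2 difference was 1.69. Hoxb7 stood at 447, 384 and 189.7 CPM in the ureteric class, at 81.2, 69.0 and 73.8 CPM in the cap class and at 40.2, 21.9 and 27.0 CPM in the stroma. All ureteric values lay above all mesenchymal ones, and the fitted difference was 2.74 (log2, SE 0.15, adjusted p = 7.21e-08), 6.66-fold. Hoxb7 was called without each library in turn.

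Hoxb4, a low-numbered homeodomain factor of the same cluster, stood at 159.8, 229.5 and 32.1 CPM in the ureteric class, at 43.8, 91.6 and 24.1 CPM in the cap class and at 23.6, 41.9 and 9.24 CPM in the stroma (difference 1.74, SE 0.22, adjusted p = 0.000199). Hoxb6 stood at 186, 88.5 and 46.7 CPM in the ureteric class, at 70.1, 60.5 and 27.7 CPM in the cap class and at 31.2, 8.72 and 8.66 CPM in the stroma (1.78, SE 0.22, adjusted p = 0.000135). For both genes the cap class lay between the others in every library. Hoxb8 stood at 183, 214 and 5.58 CPM in the ureteric class, at 88.7, 117 and 4.78 CPM in the cap class and at 29.4, 13.2 and 1.54 CPM in the stroma (1.75, SE 0.23, adjusted p = 0.000207). Hoxb9 stood at 79.9, 257 and 24.5 CPM in the ureteric class, at 53.1, 118 and 24.1 CPM in the cap class and at 18.9, 17.4 and 6.44 CPM in the stroma (1.64, SE 0.26, adjusted p = 0.00117). In C1 the ureteric and cap values of Hoxb8 and Hoxb9 were close together, and the distance was to the stroma. Hoxb3 had the smallest called difference of the cluster (0.99, SE 0.26, adjusted p = 0.0185), with 11.7, 55.6 and 44.0 CPM in the ureteric class and 9.80, 29.3 and 40.0 CPM in the cap class. Its call was lost without Drop-seq and without 10x. Hoxb2 (0.43, adjusted p = 0.527) and Hoxb5 (0.44, 95% interval 0.004 to 0.88, adjusted p = 0.189) did not pass. Against the cap class alone the differences of Hoxb2 (-0.29, adjusted p = 0.764) and Hoxb5 (-0.38, adjusted p = 0.361) were negative. The choice of mesenchyme bore on the calls. Against the cap class alone 13 Hox genes passed, with Hoxa5 (adjusted p = 0.065), Hoxc10 (adjusted p = 0.0612) and Hoxd11 (adjusted p = 0.0534) among those lost, and of the 6 HoxB genes Hoxb7 (2.03, adjusted p = 1.92e-05) and Hoxb4 (1.15, adjusted p = 0.017) were still called, while Hoxb6 (0.85, adjusted p = 0.0634), Hoxb8 (0.69, adjusted p = 0.127), Hoxb9 (0.60, adjusted p = 0.264) and Hoxb3 (0.38, adjusted p = 0.491) were not. Against the stroma alone 18 passed: Hoxb5 was added (1.26, adjusted p = 0.00276), and Hoxc10 (adjusted p = 0.0547), Hoxd11 (adjusted p = 0.0753) and Hoxd12 (-0.77, adjusted p = 0.462) were lost.

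HoxD divided within the cluster. Hoxd1, Hoxd3, Hoxd8 and Hoxd9 were higher in the ureteric class, Hoxd11 and Hoxd12 were lower, and Hoxd10 leaned low without passing. Hoxd8 stood at 97.2, 71.3 and 16.3 CPM in the ureteric class, against 8.77, 12.2 and 3.02 CPM in the cap class and 15.2, 13.2 and 2.25 CPM in the stroma. The difference was 2.70 (SE 0.36, adjusted p = 0.00032), 6.51-fold, with no overlap in any library, and it was called without each library in turn. Hoxd9, which begins 2622 bases past the end of Hoxd10, stood at 112, 213 and 26.4 CPM in the ureteric class, at 40.0, 49.5 and 15.6 CPM in the cap class and at 45.3, 66.3 and 19.0 CPM in the stroma (1.26, SE 0.27, adjusted p = 0.00733). Hoxd10 stood at 2.79, 3.13 and 35.3 CPM in the ureteric class, at 69.4, 58.0 and 74.8 CPM in the cap class and at 69.6, 48.04 and 92.2 CPM in the stroma. Its difference was -2.35 (95% interval -3.88 to -0.81, adjusted p = 0.0549). The neighbours thus had opposite directions in all 3 libraries, and only the higher one passed. The difference between the 2 genes itself was not tested.

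Hoxd11 stood at 8.38, 7.05 and 40.6 CPM in the ureteric class, at 106, 149 and 103 CPM in the cap class and at 82.3, 106 and 92.1 CPM in the stroma (-2.42, SE 0.65, adjusted p = 0.0446). Hoxd12 stood at 2.79, 0.783 and 6.79 CPM in the ureteric class at 41.0, 34.8 and 20.6 CPM in the cap class and at 14.505, 4.27 and 6.06 CPM in the stroma (-1.85, SE 0.54, adjusted p = 0.0351). The call of Hoxd12 rested on the cap class, since it did not pass against the stroma alone, and that of Hoxd11 passed against neither class alone. The C1 ureteric value was the highest of the 3 for both genes. Hoxd1 was detected almost solely in the ureteric class and the nephron: 26 ureteric against 3 mesenchymal counts in Drop-seq, 16 against 0 in 10x and 35 against 1 in C1. Per total counts the ratio was 32.1 (95% counting interval 9.85 to 166) in Drop-seq and 170 (28.5 to 6887) in C1, and in 10x it was at least 31.3-fold, taking 3 counts over the mesenchyme as the limit that a count of 0 allows. The C1 interval treats every read as an independent count, though reads there may be copies of the same molecule, so it is too narrow. Hoxd1 passed the test (SE 1.07, adjusted p = 0.00147), but its fitted size depends on the prior count. Hoxd3 was higher by 1.69 (SE 0.28, adjusted p = 0.000974), with 325, 7.83 and 35.8 CPM in the ureteric class against 98.3, 1.22 and 21.6 CPM in the cap class and 62.7, 0.855 and 13.6 CPM in the stroma. The calls of Hoxd9, Hoxd11 and Hoxd12 were lost without Drop-seq and without 10x, and those of Hoxd1 and Hoxd3 without Drop-seq.

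HoxC had the lowest median difference of the 4 clusters. All 7 HoxC genes tested had negative differences, 5 passed, and the median was -2.81. Hoxc6 stood at 2.79, 0.783 and 0.901 CPM in the ureteric class, at 34.8, 76.4 and 6.40 CPM in the cap class and at 36.3, 68.7 and 8.80 CPM in the stroma. It was 15.4-fold lower (log2 -3.94, SE 0.55, adjusted p = 0.000333), with no overlap. Hoxc10, a gene of the posterior end of the cluster, stood at 19.6, 2.35 and 22.3 CPM in the ureteric class, at 266, 207 and 67.0 CPM in the cap class and at 233, 198 and 72.5 CPM in the stroma (-3.06, SE 0.82, adjusted p = 0.0427). The gap was widest in 10x and narrowest in C1. Hoxc8 stood at 2.79, 3.13 and 14.4 CPM in the ureteric class against 55.7, 89.2 and 40.2 CPM in the cap class (-2.81, SE 0.66, adjusted p = 0.0234). Hoxc4 (-3.07, SE 0.59, adjusted p = 0.00235) and Hoxc5 (-2.71, SE 0.74, adjusted p = 0.0239) were low genes, with at most 28 ureteric counts in a library. Hoxc9 had 15.1, 0.783 and 32.8 CPM against 161, 139 and 70.6 CPM in the cap class and did not pass (-2.30, adjusted p = 0.0941), nor did Hoxc11 (-1.10, adjusted p = 0.607). None of the 5 HoxC calls was kept without Drop-seq, and those of Hoxc5 and Hoxc10 were also lost without 10x.

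HoxA leaned the same way with fewer calls. Of 9 HoxA genes tested 8 had negative differences, 3 passed, and the median was -1.62. Hoxa11 stood at 12.3, 0.783 and 8.53 CPM in the ureteric class, at 144, 40.9 and 26.6 CPM in the cap class and at 80.1, 13.5 and 26.4 CPM in the stroma (-2.45, SE 0.55, adjusted p = 0.0143). Hoxa3 (-1.62, SE 0.34, adjusted p = 0.00528) and Hoxa5 (-1.65, SE 0.45, adjusted p = 0.0354) were the other lower genes, and Hoxa5 read 2.79, 4.70 and 24.1 CPM in the ureteric class against 35.8, 44.6 and 32.4 CPM in the cap class. All 3 calls were lost without Drop-seq and without 10x. Hoxa10 stood at 29.6, 4.70 and 68.0 CPM in the ureteric class, at 310.5, 246 and 113 CPM in the cap class and at 247, 143 and 102 CPM in the stroma. It lay lower in each library but did not pass (-2.21, 95% interval -3.75 to -0.67, adjusted p = 0.0694). Hoxa9 read 19.0, 6.27 and 17.9 CPM in the ureteric class against 206, 101 and 20.5 CPM in the cap class (-1.45, adjusted p = 0.212), so the droplet libraries separated the classes and C1 did not. Hoxa7, the paralogue of Hoxb7, read 8.38, 5.48 and 21.7 CPM in the ureteric class and 51.8, 58.0 and 40.1 CPM in the cap class (-1.23, 95% interval -2.33 to -0.13, adjusted p = 0.149). Hoxa2, Hoxa4 and Hoxa6 did not pass.

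**Figure D3:**
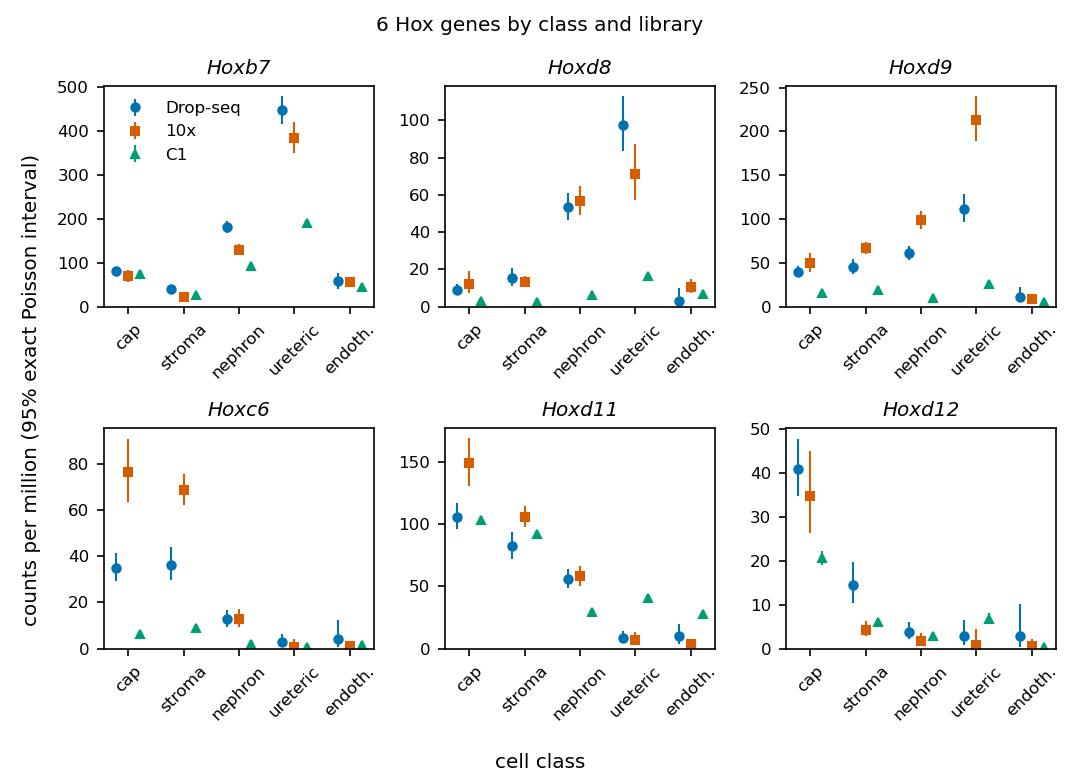
Level of Hoxb7, Hoxd8, Hoxd9, Hoxc6, Hoxd11 and Hoxd12 (CPM, linear vertical axes that differ between panels) in the 5 classes (horizontal axis), with 1 marker per library and exact 95% Poisson intervals that cover counting error only. In C1 the intervals treat every read as an independent count and are too narrow. In all 3 libraries Hoxb7, Hoxd8 and Hoxd9 are highest in the ureteric class and Hoxd11 and Hoxd12 in the cap class, while Hoxc6 is highest in the cap or the stroma class.

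Read by paralogue group, most middle groups held genes on both sides. In group 4 Hoxb4 was higher and Hoxc4 lower, in group 6 Hoxb6 was higher and Hoxc6 lower, and in group 8 Hoxb8 and Hoxd8 were higher and Hoxc8 lower. In group 3 Hoxb3 and Hoxd3 were higher and Hoxa3 lower. Group 5 had 2 lower genes, Hoxa5 and Hoxc5, and in group 9 Hoxb9 and Hoxd9 were higher while Hoxa9 and Hoxc9 had negative differences that did not pass. From group 10 on there was 1 direction: all 7 tested genes of groups 10 to 13 had negative differences, 4 of them passed, and the median was -2.35, against 0.22 over the 24 tested genes of groups 1 to 9, of which 10 were higher and 6 lower. Groups 10 to 13 made up 3.91%, 0.985% and 22.1% of Hox counts in the ureteric class, 42.5%, 35.5% and 40.9% in the cap class and 47.1%, 41.8% and 50.3% in the stroma.

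**Figure D4:**
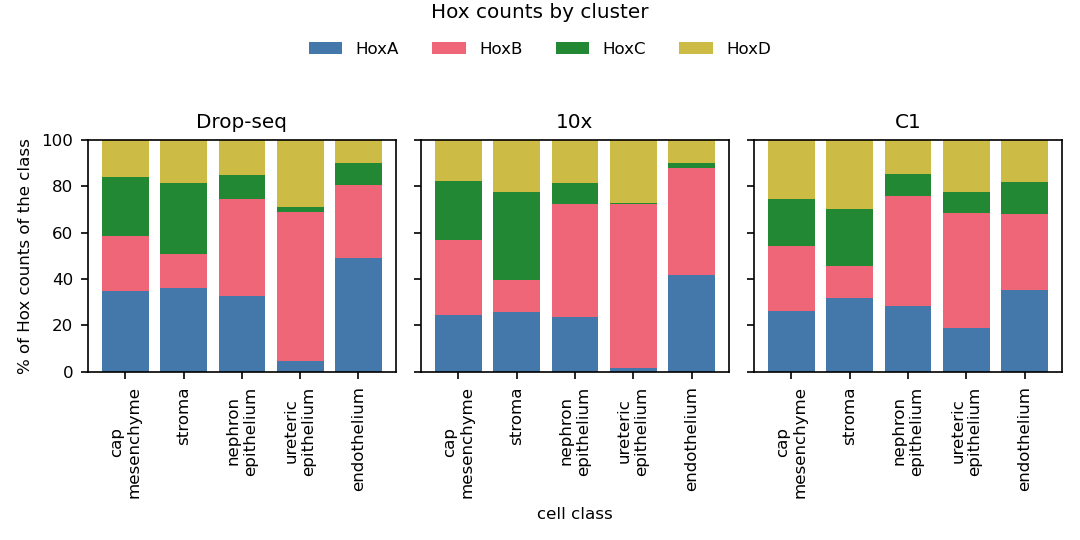
Share of all Hox counts of a class that came from each cluster (stacked bars, percent, from 0 to 100), by class (horizontal axis), 1 panel per library. HoxB makes up 71.1% in the 10x ureteric class and 13.7% in the 10x stroma.

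The same split stood within single cells of the droplet libraries and was weaker in C1. Cells were thinned to 1 depth, 4000 molecules for the droplet libraries and 50000 reads for C1, which left out 1, 18 and 6 ureteric, 17, 21 and 12 cap, 12, 85 and 18 stromal and 0, 50 and 5 endothelial cells that were shallower. Among thinned ureteric cells 87.4%, 97.0% and 44.2% had a count of a HoxB gene and none of a HoxC gene, and 0%, 0% and 1.16% had the reverse (0 of 174 and 0 of 135 cells, which allows shares of cells with such counts of up to 1.72% and 2.22%). In the stroma 44.5%, 42.7% and 22.6% had HoxC without HoxB, and 10.7%, 6.35% and 8.96% had HoxB without HoxC. Counts of both were found in 10.3%, 2.22% and 54.7% of ureteric cells and in 30.4%, 35.1% and 63.8% of stromal cells. In C1, most cells of either class thus held both. The cap class mostly held both, in 60.9%, 76.9% and 87.2% of cells. A count of any gene of groups 10 to 13 was found in 13.8%, 6.67% and 70.9% of thinned ureteric cells and in 94.1%, 89.6% and 98.3% of cap cells.

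Hoxb7 was found in 68.4%, 71.1% and 70.9% of thinned ureteric cells (84.0%, 88.9% and 73.9% before thinning), in 20.5%, 19.8% and 53.3% of cap cells and in 9.98%, 8.68% and 25.1% of stromal cells. In the immune class of 10x, taken here as a background on the assumption that it lacks Hoxb7, the share was 5.26% of 38 thinned cells. Its median was 4945 molecules, against 8186 in the ureteric class. That is 2 cells, with an exact 95% interval of 0.644% to 17.7%, and the 10x immune class also carried the 2 stromal marker lists at 707 and 868 CPM. The 10x stromal share lies within that interval, which is too wide to tell stromal expression from background. Drop-seq had no immune class and so no such background of its own. Hoxc10 was found in 4.60%, 0.741% and 27.9% of thinned ureteric cells, against 5.26% (also 2 of 38 cells) in the 10x immune class. The 10x ureteric share was below that value, and for Drop-seq no such value could be given. In C1 the 14 immune cells themselves carried cap markers at 1174 CPM and Hoxc10 at 34.5 CPM, above the 22.3 CPM of the ureteric class.

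The C1 ureteric class thus held the most counts of posterior and HoxA genes and the most cap and stromal markers. With a finer clustering of the C1 cells (Leiden resolution 1.6), 50 cells were named ureteric and 39 distal nephron. In the 50, HoxB made up 58.3% and groups 10 to 13 17.7% of Hox counts, Hoxb7 stood at 209.6 CPM and Hoxa10 at 40.8 CPM, and cap markers still summed to 562 CPM. In the 39, HoxB made up 40.4% and Hoxa10 stood at 112 CPM. The part of marker RNA from other cells in the C1 values was not tested.

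The ureteric class itself was uneven. In 10x it held 116 cells led by Calb1 and Ret, genes of the branching tip, and 37 led by Upk3a and Krt19, genes of the urothelium and trunk. Hoxb7 read 406 CPM in the former and 281 CPM in the latter, and Hoxd4 190.1 and 249 CPM. In Drop-seq the corresponding clusters of 159 and 16 cells read 449.9 and 436 CPM for Hoxb7 and 270.3 and 534 CPM for Hoxd3. With few cells in the smaller clusters and no replicate, these values carry no test.

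Within the mesenchyme the calls between stroma and cap class were mostly of HoxB genes. Of 31 Hox genes tested, 8 were lower in the stroma, against 6.6% of all genes (3.06% lower, 3.54% higher), and 7 of the 8 were HoxB genes. All 8 lay below the cap value in each of the 3 libraries. The eighth HoxB gene tested, Hoxb2, had 135, 127 and 38.8 CPM in the cap class and 66.7, 36.2 and 15.3 CPM in the stroma and missed the threshold (-1.44, adjusted p = 0.0771). The HoxB median was -1.54, against -0.05 for all genes tested. The difference between clusters was not tested.

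**Figure D5:**
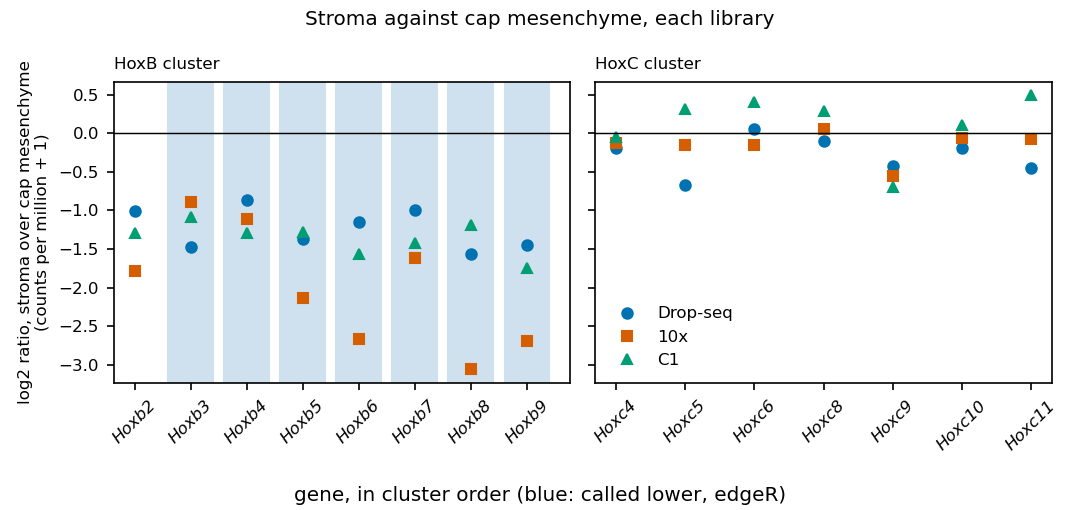
Log2 ratio of each gene's level in the stroma to that in the cap class (CPM plus 1, vertical axis) for the tested HoxB and HoxC genes (horizontal axis, 1 panel per cluster), with 1 marker per library and blue bands for genes called lower in edgeR. All HoxB markers lie below 0, while the HoxC markers lie closer to 0, on both sides of it except for Hoxc4 and Hoxc9, which lie below 0 in all 3 libraries.

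Hoxb8 had the largest HoxB difference (-2.12, SE 0.29, adjusted p = 0.000756), 4.36-fold lower in the stroma, and Hoxb9 was similar (-2.08, SE 0.33, adjusted p = 0.00237). Hoxb6 (-1.86, SE 0.28, adjusted p = 0.00132) and Hoxb7 (-1.41, SE 0.19, adjusted p = 0.000556) followed. Hoxb5, whose difference between ureteric epithelium and mesenchyme did not pass after adjustment, read 17.8, 14.4 and 18.7 CPM in the stroma against 47.7, 66.6 and 46.9 CPM in the cap class (-1.64, SE 0.24, adjusted p = 0.000827). Hoxb3 (-1.21, SE 0.30, adjusted p = 0.0253) and Hoxb4 (-1.19, SE 0.27, adjusted p = 0.0189) had smaller differences. Hoxd12 was the gene outside HoxB, at 14.505, 4.27 and 6.06 CPM in the stroma against 41.0, 34.8 and 20.6 CPM in the cap class (-2.16, SE 0.55, adjusted p = 0.0286). Of 9 HoxA and 7 HoxC genes tested none passed in edgeR, DESeq2 or limma over all 3 libraries, and none had an unadjusted p under 0.05. Hoxa7 (-0.78, 95% interval -1.92 to 0.37), Hoxa9 (-0.56, -2.07 to 0.95), Hoxa10 (-0.51, -2.01 to 0.99) and Hoxa11 (-0.86, -2.004 to 0.29) nonetheless lay below the cap value in each library. Hoxc6 read 36.3, 68.7 and 8.80 CPM in the stroma against 34.8, 76.4 and 6.40 CPM in the cap class, a difference of 0.05 (95% interval -0.88 to 0.99). Stromal cells held cap markers at 369, 140.1 and 641 CPM, against 1336, 2033 and 2048 CPM in the cap class. Leaving out Drop-seq kept 4 of the 8 calls (Hoxb5, Hoxb6, Hoxb7, Hoxb8), leaving out 10x kept 4 (Hoxb6, Hoxb7, Hoxb8, Hoxb9), and leaving out C1 kept all 8 and gave 14 in all, of which 6 lay outside HoxB (Hoxa7, Hoxa9, Hoxa11, Hoxd3, Hoxd11 and Hoxd12).

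In nephron epithelium, which forms from the cap cells, 2 Hox genes were higher than in the cap class and 2 lower, 4 of 31, against 6.51% of all genes (4.06% higher, 2.45% lower). At an unadjusted p under 0.05 there were 11, and limma called 10. All 7 HoxC genes tested lay below the cap value in each library, with a median of -1.67, though only Hoxc6 passed in edgeR. How large a share of all genes lay below it in each library was not determined. Hoxd8 rose from 8.77, 12.2 and 3.02 CPM in the cap class to 53.3, 56.6 and 6.05 CPM (2.001, SE 0.46, adjusted p = 0.019), 4.004-fold. Hoxb7 rose from 81.2, 69.0 and 73.8 CPM to 181, 130.0 and 92.3 CPM (0.79, SE 0.18, adjusted p = 0.0165). Both were also among the ureteric genes. Hoxd12 fell from 41.0, 34.8 and 20.6 CPM to 3.74, 1.63 and 2.95 CPM (-3.51, SE 0.60, adjusted p = 0.00237), 11.4-fold, and Hoxc6 fell from 34.8, 76.4 and 6.40 CPM to 12.7, 12.8 and 1.93 CPM (-1.95, SE 0.47, adjusted p = 0.0239). None of the 4 calls was kept without Drop-seq, where 7 of 33 tested Hox genes still had an unadjusted p under 0.05, and without 10x only Hoxd12 was kept. Without C1 there were 15. The nephron class of C1 held proximal cells alone, while those of the other libraries also held distal cells and podocytes.

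The nephron segments were not alike, as far as the 2 droplet libraries show (Drop-seq, then 10x), with no test. Distal cells read 83.5 and 176 CPM for Hoxd8, against 19.3 and 10.9 CPM in proximal cells and 8.43 and 13.5 CPM in podocytes. Hoxd9 read 88.5 and 259.7 CPM in distal cells and 20.9 and 33.7 CPM in proximal cells, and Hoxd11 75.9 and 124 CPM against 20.1 and 17.1 CPM. The ureteric class stood at 97.2 and 71.3 CPM for Hoxd8 and at 112 and 213 CPM for Hoxd9. For both genes it thus lay above the distal cells in Drop-seq and below them in 10x. Hoxb7 ran from 225 and 201 CPM in distal cells through 158 and 116 CPM in proximal cells to 59.0 and 70.2 CPM in podocytes. In podocytes HoxC genes made up 38.0% and 26.2% of Hox counts, against 6.85% and 3.50% in distal cells. Hoxc10 stood at 212 and 127 CPM in podocytes, below its cap level of 266 and 207 CPM in both libraries. HoxB made up 48.4% and 59.3% in proximal cells. Distal cells thus combined high HoxB and Hoxd8 with Hoxd11, which the ureteric class held at 8.38 and 7.05 CPM. Ureteric markers summed to 435 and 380.3 CPM in distal cells, against 2389 and 3381 CPM in the ureteric class, and their part in the distal Hox values was not tested.

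Endothelium, whose cells do not descend from the ureteric bud or the cap, had the lowest Hox total of the 5 classes found in all libraries, at 655, 425 and 458 CPM. Against the mean of cap and stroma 12 of 31 Hox genes were lower, against 8.97% of all genes. Of all genes 17.6% passed in either direction and 8.65% were higher, while over all 3 libraries no Hox gene was higher in edgeR, DESeq2 or limma and none with a positive difference had an unadjusted p under 0.05. Without C1 2 were higher, Hoxa7 (0.57) and Hoxb7 (0.43). The lower genes were 5 of 7 tested in HoxC, 5 of 7 in HoxD, 1 of 9 in HoxA and 1 of 8 in HoxB, and all 12 lay below both mesenchymal classes in each library. Of the 7 tested genes of groups 10 to 13, 5 were lower. Hoxd12 had the largest difference (-4.83, SE 0.77, adjusted p = 0.000446), with 2.79, 0.580 and 0.259 CPM in endothelium from 2, 2 and 5 counts. Hoxc6 read 4.19, 1.16 and 1.45 CPM (-3.46, SE 0.54, adjusted p = 0.000559), 11.04-fold lower, and Hoxd9 read 11.2, 8.98 and 5.65 CPM (-1.89, SE 0.34, adjusted p = 0.00191). Hoxc8 (-3.02, SE 0.71, adjusted p = 0.0166), Hoxc10 (-2.96, SE 0.82, adjusted p = 0.038), Hoxc5 (-2.99, SE 0.76, adjusted p = 0.0126) and Hoxc4 (-2.40, SE 0.54, adjusted p = 0.00636) were the other HoxC genes. Hoxd11 (-2.89, SE 0.69, adjusted p = 0.0212), Hoxd10 (-2.39, SE 0.69, adjusted p = 0.0429), Hoxd3 (-1.10, SE 0.32, adjusted p = 0.0289), Hoxa11 (-2.64, SE 0.56, adjusted p = 0.00822) and Hoxb3 (-1.17, SE 0.30, adjusted p = 0.0132) made up the rest.

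Hoxa5, Hoxa7 and Hoxb7, chosen after their values were seen, were the 3 genes of HoxA and HoxB with a positive difference in endothelium. Hoxa5 read 46.1, 33.0 and 37.0 CPM in endothelium against 35.8, 44.6 and 32.4 CPM in the cap class (0.04, 95% interval -0.86 to 0.94), and Hoxa7 48.9, 69.3 and 24.2 CPM against 51.8, 58.0 and 40.1 CPM (0.28, 95% interval -0.74 to 1.29). Hoxb7 read 57.3, 55.1 and 44.6 CPM, between stroma and cap (0.23, 95% interval -0.12 to 0.59). Of the other HoxB genes, Hoxb5 (-0.50, 95% interval -0.97 to -0.03), Hoxb6 (-0.63, -1.19 to -0.08) and Hoxb9 (-0.70, -1.36 to -0.03) had negative differences that did not pass after adjustment, and the medians were -0.68 over the 9 HoxA and -0.57 over the 8 HoxB genes tested. At the thinned depth 22.1%, 19.1% and 0% of endothelial cells had no Hox count at all, against 0.174%, 0% and 0% of cap cells and 65.8% of immune cells in 10x. In C1 the shares come from 0 of 72 endothelial and 0 of 180 cap cells, which allows up to 4.17% and 1.67%, and in 10x from 0 of 182 cap cells, which allows up to 1.65%. Without Drop-seq the calls of Hoxc6 and Hoxd12 were kept, without 10x those of Hoxc6, Hoxc8, Hoxd9 and Hoxd12, and without C1 all 12 were kept and 22 passed, 20 of them lower.

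The 4 comparisons share libraries and class sums, so their counts are not independent. Across the 5 classes, Hoxb3, Hoxb4, Hoxb7, Hoxb8, Hoxb9, Hoxd1, Hoxd3, Hoxd8 and Hoxd9 had their highest level in the ureteric class in all 3 libraries. Hoxa10, Hoxa11, Hoxc4, Hoxc9, Hoxd11 and Hoxd12 had it in the cap class, and Hoxa2 in the stroma, at 7.98, 6.67 and 12.03 CPM. The other tested genes had different highest classes in different libraries.

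Members at the ends of the clusters were scarcely detected. Hoxa13 had 5, 0 and 1 counts in all classes together, Hoxc13 4, 0 and 0, Hoxb1 15, 2 and 136, and Hoxd13 3, 4 and 86. Hoxb13 and Hoxc12 had 0 counts in 10x and C1. None of these was tested, and nothing is read from their class values. Hoxd4 was tested in no comparison because the Drop-seq table has no row for it. It read 201 CPM in the 10x ureteric class, 61.1 CPM in the cap class and 39.1 CPM in the stroma, and in C1 21.4, 12.1 and 6.90 CPM, the order shown by Hoxd3. Hoxd3 and Hoxd4 share 388 exonic bases on the same strand and 339 stretches of 50 bases in GENCODE M21, and Hoxd3 had 1495 counts in Drop-seq but 22 in 10x, where Hoxd4 had 817. The division of reads between the 2 genes is therefore uncertain. Hoxc5 and Hoxc10 share 166 exonic bases. Antisense genes overlap others, among them Hoxb3os with 2250 bases (52.9%) of Hoxb3 and Hoxa11os with 800 bases (34.98%) of Hoxa11. The sources used here do not state whether counting used the strand. How reads of the overlapping bases were divided between these genes and their antisense partners is therefore not known.

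The TALE cofactors were lower on the ureteric side. Of 9 tested, 5 were lower in ureteric epithelium than in mesenchyme, against 4.78% of all genes, with a median of -1.23 over the 9. Meis2 read 30.2, 9.40 and 56.3 CPM in the ureteric class, 455, 536 and 171 CPM in the cap class and 537, 624 and 226 CPM in the stroma (-3.18, SE 0.64, adjusted p = 0.0118). Meis3 (-3.28, SE 0.58, adjusted p = 0.00184), Meis1 (-2.46, SE 0.65, adjusted p = 0.0409) and Pbx3 (-0.95, SE 0.24, adjusted p = 0.0156) were also among the lower cofactors. Meis1 read 4.47, 3.13 and 47.4 CPM in the ureteric class, so that C1 was near its cap level of 49.9 CPM. In endothelium Meis3 and Pknox2 were lower. In nephron against cap none of the 9 passed in edgeR, 4 had an unadjusted p under 0.05, and DESeq2 and limma each called 3.

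Of the regulators of Hox transcription, 19 of 23 were tested: Polycomb subunits, Men1 of the Trithorax side and Gdf11, but no Cdx gene. Between ureteric epithelium and mesenchyme none passed in edgeR, DESeq2 or limma, 1 had an unadjusted p under 0.05, and the median was -0.01. Ezh2, the Polycomb histone methyltransferase, read 422, 208 and 267 CPM in the cap class and was lower in both stroma (difference -0.53, SE 0.12, adjusted p = 0.0124) and nephron (difference -0.42, SE 0.12, adjusted p = 0.0451). It was the 1 gene of the 19 called in each, against 3.06% and 2.45% of all genes called lower. In stroma and nephron 6 and 7 of the 19 had an unadjusted edgeR p under 0.05. DESeq2 called 2 and 1 of them, and limma 2 and 5. In endothelium 4 of the 19 were lower, against 8.97% of all genes, the Polycomb subunits Bmi1, Pcgf2, Phc1 and Rnf2.

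Of the kidney partners and targets of HOX11, 4 of 7 were tested, and Eya1 and Six2 were left out because they had served to name classes. Itga8, an integrin chain of the mesenchyme and a target of HOX11 with its partners, read 5.59, 1.57 and 16.5 CPM in the ureteric class, 112, 56.2 and 67.8 CPM in the cap class and 91.0, 34.5 and 62.0 CPM in the stroma (-3.01, SE 0.51, adjusted p = 0.00317). It was also lower in nephron than in cap (-2.83, SE 0.51, adjusted p = 0.00865) and in endothelium than in mesenchyme (-1.57, SE 0.46, adjusted p = 0.0378). Pax2 was lower in endothelium (-2.70, SE 0.70, adjusted p = 0.0291).

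Protein-coding genes flanking the clusters, 2 on each side with Evx and predicted Gm genes left out, gave a comparison for the chromosome regions and lay 28.9 to 894 kb from them. Of these 16 neighbours 13 were tested, and 4 were higher in ureteric epithelium than in mesenchyme, against 7.46% of all genes, with a median of 0.12. They were Mtx2, 60.7 kb from HoxD, at 252, 197 and 261 CPM in the ureteric class against 174, 136 and 168 CPM in the cap class (0.60, SE 0.08, adjusted p = 0.000227), Snx11, 399 kb from HoxB (1.04, SE 0.25, adjusted p = 0.011), and Snx10 (0.97, SE 0.25, adjusted p = 0.0162) and Hibadh (0.53, SE 0.11, adjusted p = 0.00343), 565 and 285 kb from HoxA. The 2 near HoxA thus lay on the opposite side from the HoxA genes, and no neighbour of HoxC passed, with 1 of 4, Smug1, at an unadjusted p of 0.0194. In stroma against cap, 2 of the 13 were lower, Skap1 and Snx10, against 3.06% of all genes. Skap2 was higher there, 1 of 13, against 3.54%. In nephron against cap 3 were higher, Atp5g3, Hibadh and Skap2, against 4.06% of all genes, and none was lower. In endothelium against mesenchyme 2 were higher, Atp5g3 and Skap2, against 8.65%, and 1 was lower, Hibadh, against 8.97%.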

How the data were processed

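Raw counts per gene and cell were taken from the 3 deposited tables, which the authors made with Bowtie2 2.2.7 (Drop-seq, C1) and Cell Ranger 1.3.0 (10x) on mm10, per the submitters' processing notes. Drop-seq and 10x tables count molecules and C1 counts reads without molecular identifiers. Intervals cover counting error only, and in C1 they treat reads of the same molecule as separate counts, so they are too narrow there. The labels give the Drop-seq extraction text for all 3 samples.

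Cells with under 500 genes or over 20% mitochondrial counts were dropped. Scrublet removed 17 (10x) and 10 (C1) doublets; in Drop-seq it marked 0.255% of cells, which was taken as a failed run, and removed none. Each library, with a total of 17751487, 17465306 and 171350454 counts, was clustered with scanpy 1.11.5 and leidenalg 0.10.2 (resolution 1.0) without the Hox and list genes, and clusters were named from 13 marker lists.

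Counts were summed per library and class (16 sums, 8 residual degrees of freedom) and fitted with edgeR 4.0.16 (quasi-likelihood test, TMM, library as block) in R 4.3.3, tested on simulated data. Benjamini-Hochberg adjustment ran over 10148 genes used neither to cluster nor to name. Sums and counts cover all 39 Hox genes, some items are not reported here, and Hox genes called with 1 direction in all libraries have full statistics; other genes come from fixed lists. Members and lists were chosen with earlier results of these data known. Alternatives were DESeq2 1.42.0, limma 3.58.1, no filter, no block, other clusterings and each library left out. Normalized tables were not used here.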

Additional observations from a re-analysis of the deposited data

Results flagged for a closer look

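Several genes of the clusters carried signal but stood outside the tests because not all 3 tables list them. Hoxd4 had 817 counts in the named classes of 10x and 1339 in C1. Of the antisense and other noncoding genes, Hoxa11as had 7728 counts in C1, and Hoxa11os 862 in Drop-seq, where it read 112 CPM in the cap class, 68.2 CPM in the stroma and 7.82 CPM in the ureteric class, the order of Hoxa11. Hoxb3os had 379 counts in Drop-seq and 274 in 10x, Hoxb5os 512, Hoxaas3 146 and Hoxd3os1 125 in 10x. Hoxb5os read 79.4 CPM in nephron, 62.3 CPM in the cap class, 32.9 CPM in the ureteric class and 12.7 CPM in the stroma. Each count is above the 3 counts that a 0 allows, and none was compared between classes by a test.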

How the results depend on the processing

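The counts of called Hox genes depended most on the library block and on single libraries, and no called Hox gene changed direction under any setting run. With no replicate block, which leaves the libraries unpaired, the counts were 5 for ureteric against mesenchyme, 0 for stroma against cap, 0 for nephron against cap and 4 for endothelium against mesenchyme. In the 2 comparisons at 0, 6 and 5 Hox genes had an unadjusted edgeR p under 0.05. Leaving out each library in turn gave 6 to 28, 4 to 14, 0 to 15 and 2 to 22, with the highest count each time without C1. The lowest came without Drop-seq, for stroma also without 10x. The ureteric count was 13 against the cap class alone and 13 with nephron added to the mesenchyme. For nephron, limma gave 10 and 2 blocks for the name groups of the C1 cells gave 2. DESeq2, no filter, the other cell filters and clusterings and adjustment over all genes gave 17 to 26, 6 to 9, 3 to 6 and 10 to 15. At this depth Hoxa13, Hoxb1, Hoxc13 and Hoxd13 had at most 15 counts in either droplet library and were not tested. With thinning, 58 shares of cells moved beyond their interval and 17 did not.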
